A study of Mus musculus with 4 samples.

Results

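Genes of zinc finger proteins carried 376 of the 28412 edited sites listed for young mouse cortex (1.32%), under 85 of the 4206 gene symbols in the list (2.02%). Members were taken by name, as every listed symbol that starts with Zfp, Zbtb, Zkscan, Zscan, Zfhx, Zeb, Zmat, Zmiz or Zc3h. Their share of annotated genes with a site was close to that of protein-coding genes in general. Zbtb18 and Zbtb20 had the most sites, although genes with at least 10 sites held a smaller share of the sites than in the rest of the list. Their coding sites lay mostly in very long exons, and few of them lay inside the finger-coding repeats themselves.

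The list was made with scDART-seq, a method that fuses the deaminase APOBEC1 to the YTH domain, a reader of N6-methyladenosine (m6A), so that cytosines beside m6A become uracil. Cortex came from mice aged 6 to 8 weeks at the first dose of tamoxifen, which was given at 20 mg/kg each 24 h over 5 days, with tissue taken 7 days after the last dose. The 4 sublibraries share 1 pool of dissociated cells, in which some cells had APOBEC1-YTH and others APOBEC1-YTHmut, and replicates 1 and 2 were pooled in each. All mice therefore had tamoxifen, both kinds of cell carried an APOBEC1 fusion, and it was driven by a promoter not given in the sources used here. Samples, genotypes, cell types and expression levels are absent from the list. It has no replicates, so differences between the zinc finger genes and the rest of the list have no test and are given as descriptions, with exact (Clopper-Pearson) 95% intervals that cover counting error only. Sites of 1 gene are not independent, which these intervals do not include.

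Zinc finger proteins fold short loops around a zinc ion. In the C2H2 type, the commonest, a pair of cysteines and a pair of histidines hold the zinc, and tandem fingers read DNA. Many Zfp proteins also carry a KRAB domain that recruits the corepressor Trim28, the Zbtb proteins carry a BTB domain that pairs proteins and recruits corepressors, and CCCH fingers such as those of Zfp36l1 and the Zc3h proteins mostly bind RNA.

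The sequences around the strongest and the densest sites show what was edited. All positions are in the mm10 (GRCm38) build, 1-based, and sequences are written 5′ to 3′ on the strand of the gene as DNA, from the GENCODE M21 transcripts. In the first set, shown because these sites had the highest counts of their genes, capitals mark the edited C with 3 bases before it and 1 after. All of these sites lay in RAC, a purine and then A directly before the edited C.
Zfp612 chr8:110090182-110090211 (+): tgaagaaaaaaaAAACTaaaaaaacaaaaa
Zfp365 chr10:67887620-67887649 (-): accctccccaaaTGACActgttcctattaa
Zfp644 chr5:106636791-106636820 (-): tccactgggactTGACAaaagaaaaaatga
Zbtb20 chr16:43637989-43638018 (+): aaaaaaagaaaaAAACTaatcgaaaagttt
The edited base had a site count of 100 in Zfp612, 63 in Zfp365, 48 in Zfp644 and 37 in Zbtb20. The highest site of Zbtb18, with a count of 71, is not in this set and lies in the Zbtb18 window of the second set. The site count is a whole number that the authors deposited for each site without saying what it counts.

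A second set shows places where several cytosines were listed close together. Here every capital is a listed C.
Zbtb18 chr1:177447291-177447320 (+): tcatCtgaaCagCgaCattgtgaCagcccc
Zfp612 chr8:110090250-110090279 (+): caaaaaCaaCaaCaaCaaCaaaCccacaca
Zc3h13 chr14:75328005-75328034 (+): gaaagagaaaaagaaCgagaaCggcaaaga
Zfp91 chr19:12769992-12770021 (-): ggcactgggaCagtgCagaCtttgtattta
The Zbtb18 window is coding and holds 5 sites with counts from 3 to 71. The Zfp612 window lies in the 3' UTR and is mostly a run of CAA, with 6 sites (counts 5 to 14). The Zc3h13 window is coding, with 2 sites, both in GAACG. The Zfp91 window lies just after the stop codon and holds 3 sites, with counts from 3 to 22.

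Zinc finger genes were listed about as often as other protein-coding genes. Of 501 annotated protein-coding members, 85 had a site, which is 17.0% (13.8 to 20.5), where the share over all protein-coding genes was 17.5%. For the other protein-coding genes it was 3773 of 21527, also 17.5%. With sites of a count of 4 or more only, 62 members (12.4%) had a site, against 14.0% of the others. Absence from the list can mean no expression, few reads or no editing, and these cannot be told apart.

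The members with a site had fewer sites than other listed genes. The median was 1 site per symbol among members and 2 in the rest, and 44 of the 85 members (51.8%, 40.7 to 62.7) had a single site, against 36.6% of the rest. At least 10 sites were found in 8 members, or 9.41% (4.15 to 17.7), where the share over all listed symbols was 16.9% and that of the rest 17.0%. Per kb of exon, members with a site had a median of 0.235 sites and other protein-coding genes with a site 0.439. Gene length went the other way: the exons of members with a site covered a median of 6800 nt, against 6291 nt for the others.

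The share of genes with a site lay between 13.3% and 25.0% in classes of finger number, with wide intervals. Fingers were found in the translated coding sequence by the pattern C-x(2,4)-C-x(12)-H-x(3,5)-H. Among annotated members with 10 or more fingers, the typical form of the large KRAB cluster genes, 31 of 233 (13.3%, 9.22 to 18.4) had a site. The share was 27 of 132 (20.5%) with 5 to 9 fingers, 17 of 96 (17.7%) with 1 to 4 and 10 of 40 (25.0%, 12.7 to 41.2) with none. The intervals of all these classes include the 17.5% of all protein-coding genes. The median number of sites in genes with a site was 3 with no finger and 3 with 1 to 4, and 1 in both classes with more fingers.

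Genes with many sites held a smaller share of all sites among the members than in the rest. The 8 members with at least 10 sites held 205 of the 376 sites (54.5%, 49.3 to 59.6), whereas such genes held 67.2% of the sites of the rest. The 15 members with the most sites held 260 (69.1%). Zbtb18 alone held 18.1%, so shares over the members are also given without it where it moved them. After sites within 10 nt of each other on a strand were joined, 279 separate places remained. The plot of sites per gene shows the fall after Zbtb18 and Zbtb20.

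**Figure D1:**
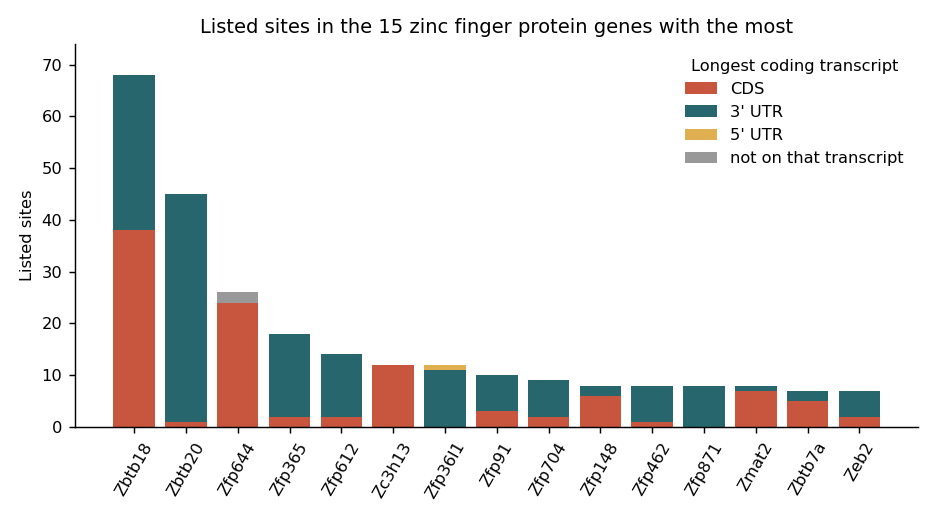
Number of listed sites in each of the 15 zinc finger protein genes with the most sites, stacked by region of the gene's longest coding transcript. Zbtb18 with 68 and Zbtb20 with 45 stand above Zfp644 with 26, and the last genes shown, Zbtb7a and Zeb2, have 7 each.

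Site counts of members lacked the extremes of the list. They ranged from 3, the lowest count in the list, to 100, with a median of 4 and 90% of sites at 17 or below, whereas the rest of the list had a median of 4, 90% of sites at 24 or below and a maximum of 3538. A count of 20 or more was found at 30 member sites, or 7.98% (5.45 to 11.2), where the share over the whole list was 12.1% and that of the rest 12.2%. A count of 100 or more was found at 1 member site (0.266%), where the share over the whole list was 1.99%. The lowest count, 3, was held by 150 member sites (39.9%), against 41.1% of the rest, and 23 members had no site above it. Of the 30 sites with a count of at least 20, Zbtb18 held 11.

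The sites of the BTB family came mainly from a pair of genes. Of 41 annotated Zbtb genes 6 had a site (14.6%), where the share over all protein-coding genes was 17.5%. These 6 held 123 sites, 32.7% of all member sites, and Zbtb18 and Zbtb20 held 113 of them. The median count of the family's sites was 6, against 4 in the Zfp family.

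Zbtb18 (RP58), a repressor needed for the differentiation of cortical neurons in mouse, carried 68 sites at chr1:177442351-177450764 (+), all in exon 2 of 2. Of its RAC cytosines, 47 of 119 (39.5%) were listed, where the median listed member had 0.962%. On its longest coding transcript, 38 sites lay in the coding sequence (CDS) and 30 in the 3' UTR. Under the region rule used for the whole list, which puts 3' UTR first when transcripts of a gene differ, 18 coding sites became 3' UTR sites of a shorter spliced transcript, giving 20 and 48.

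The Zbtb18 sites came in separate groups along the exon. Positions are given from the end of the stop codon, negative before it. The first group held 18 sites between -1410 and -1195, with counts of 71 at chr1:177447314 (TGACA), 54 at 177447306 (CGACA) and 41 at 177447361 (AAACT). Of these 18 sites, 10 were in RAC and 14 were at codon position 3, a count not set here against a background share. The second held 14 sites from -709 to -441 and ended with a count of 55 at 177448230 (CAACA). In the 3' UTR, 17 sites lay from 661 to 1078, led by a count of 52 at 177449521 (TAACG), and 9 lay from 1580 to 1725. Between -213 and 661 there was no listed site over 873 nt, a stretch that covers the stop codon, and 4 of the 68 sites lay within 400 nt of it.

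Zbtb20, a BTB transcriptional repressor with a role in hippocampal and astrocyte development, had 45 sites at chr16:42875881-43642602 (+). All but 1 lay in its 3' UTR, which is 23858 nt long in the annotation, and 5.14% of its RAC cytosines were listed. A group of 12 sites within 103 nt lay 327 to 429 nt after the stop codon, and 8 of these were in AAACA. The highest count of the gene, 37, lay far downstream, 19260 nt after the stop codon. Zbtb7a (LRF), a repressor known from blood cell development, had 7 sites with counts from 3 to 10, and 6 of them lay from -126 to 34 around the stop codon. Zbtb11, Zbtb16 (PLZF) and Zbtb38 had 1 site each, with counts of 9, 4 and 6.

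The Zfp family, the largest, had 61 of 398 annotated protein-coding genes with a site (15.3%, against 17.5% of all protein-coding genes), 196 sites in all and a median of 1 per gene. Zfp644, whose human counterpart works with the histone methyltransferase G9a, had 26 sites at chr5:106616739-106697287 (-). On the longest coding transcript, 24 were coding, nearly all in exon 3, of 3026 nt, and none were in the 3' UTR. A group of 14 sites spanned 316 nt, from -2284 to -1969, with a maximum of 48 at chr5:106636805. A smaller group of 5, from -3225 to -3148, had counts from 3 to 31.

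Zfp365, also known as a DISC1-binding zinc finger protein, had 18 sites at chr10:67886103-67912662 (-), 16 of them in the 3' UTR. Its highest count, 63 at chr10:67887634, lay 1196 nt after the stop codon in a group of 6 sites within 60 nt. The neighbours of that site had counts of 3, 3, 6, 14 and 27. No listed site lay between -795 and 1164, so here too the stop codon had none nearby.

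Zfp612 (chr8:110079746-110092741, +) showed the opposite layout. All 14 of its sites fell within 195 nt, from -75 to 119, and all 14 were in RAC. The first 3 had counts of 5, 11 and 100, the last being the highest count of any member, 16 nt after the stop codon. Further on, 5 sites in AAACA and 5 in CAACA had counts from 3 to 20. Zfp91, a ubiquitin ligase, also had all of its 10 sites close to the stop codon, within 242 nt from -140 to 101, with counts from 3 to 23. The 30-nt window of its highest site, at chr19:12770179, also occurs exactly in an exon of Gm7177, and its part in that count was not tested.

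The other Zfp genes named here had fewer sites. Zfp704 had 9, with a maximum of 38 at 119 nt after the stop codon and a neighbour of 16 at 125. Zfp148 (ZBP-89), which binds GC-rich promoters, had 8 sites with counts from 3 to 6, of which 6 were coding. Zfp462, whose human counterpart causes a neurodevelopmental syndrome when lost, had 8 sites with counts from 3 to 9, 7 of them 472 to 762 nt after the stop codon. Zfp871 had 8, all in the 3' UTR, with counts of 24 and 18 as the highest. Genes with few but strong sites, chosen after their values were seen, were Zfp106, an RNA-binding protein whose loss gives motor neuron degeneration in mice, Zfp318, and Zfp207 (BuGZ), a spindle protein. Zfp106 had 3 coding sites with counts of 24, 6 and 37, Zfp318 had a single coding site with a count of 28, and the highest of 5 sites in Zfp207 had a count of 20.

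**Figure D2:**
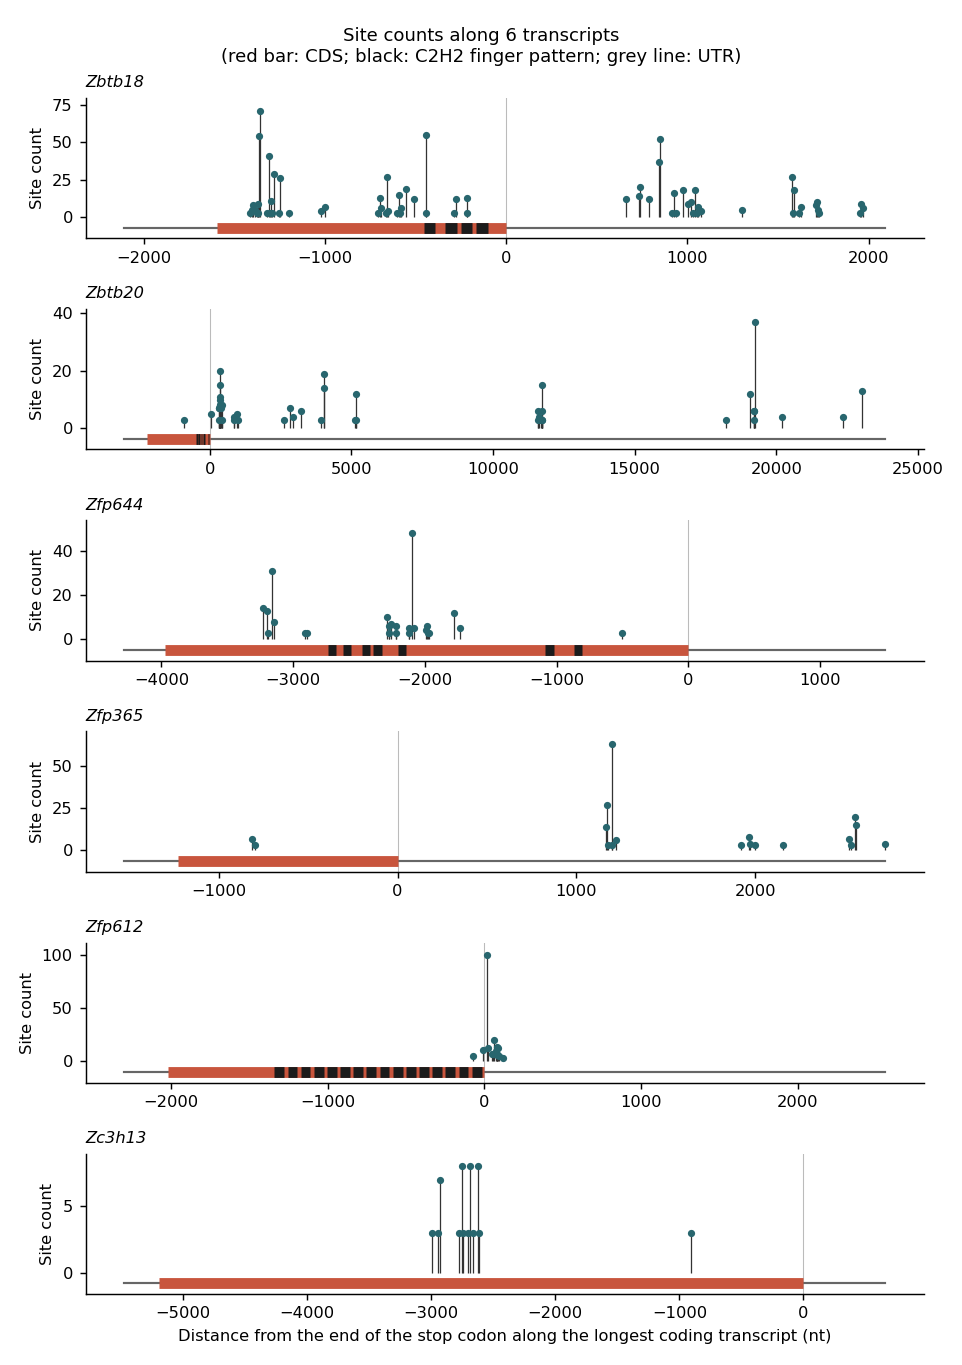
Site count (vertical axis, own scale per gene) at each listed site of 6 genes, by distance from the end of the stop codon in nt along the longest coding transcript, with the CDS in red and C2H2 finger patterns in black below. Zbtb18, Zfp365 and Zfp612 differ around the stop codon: the first has 873 nt without a site there, the second no site within 400 nt, and the third all 14 of its sites.

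Genes of the CCCH type mostly bind RNA. Of 20 annotated Zc3h genes 5 had a site (25.0%), where the share over all protein-coding genes was 17.5%, and they held 19 sites in all. Zc3h13, a component of the m6A methyltransferase complex that helps to hold it in the nucleus, had 12 of these at chr14:75284373-75344426 (+), with counts from 3 to 8. All 12 were coding, none was in DRACH (RAC whose outer bases are not C before and not G after), and 11 lay in exon 12, of 601 nt. All 11 of those edited cytosines were at codon position 1. In that exon, 7 of 9 GAACG and 3 of 15 GAGCG occurrences were listed. All 9 and all 15 have their C at codon position 1, listed or not. The remaining listed site of the exon was in AGACG. Of all 21 RAC cytosines of the exon, 13 are at codon position 1 and 8 were listed. The part of the repeat in the codon position of the sites was not tested. Zc3h11a, an mRNA export factor in human cells, had 4 sites around its stop codon, with counts of 4, 3, 29 and 4.

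Zfp36l1 and Zfp36l2 bind AU-rich elements and send the mRNA to decay through CCR4-NOT. Zfp36l1 had 12 sites at chr12:80107754-80113013 (-), of which 11 were in the 3' UTR and 10 within 166 nt, 801 to 966 nt after the stop codon, with a maximum count of 17. All 12 lay inside an exon of Gm26669, annotated on the opposite strand, and the part of that transcript was not tested. Zfp36l2 had 2 sites with counts of 5 at most, and Zfp36 had none. Zc3h12b, Zc3h15 and Zc3h18 had 1 site each. Among other CCCH genes fixed by role, Zc3h12a (Regnase-1), Zc3hav1, an antiviral protein, Zc3h14, which binds poly(A) tails, and Zc3h7b had none.

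The homeodomain-containing Zeb and Zfhx genes and the small families were covered as follows. Zeb2 and Zeb1 are repressors that bind E-boxes. Zeb2 had 7 sites, of which 4 lay 5 to 284 nt after the stop codon with counts of 3, 7, 12 and 3, and Zeb1 had 3 with counts of 5 at most. Zfhx3, known for circadian rhythm in mice, had 2 sites, as did Zfhx2, and Zfhx4 had none. Zmat2, whose human counterpart is part of the spliceosome, had 8 sites with a maximum of 21, and 7 of them were coding. Zmat1 and Zmat3, a p53 target, had 1 site each at the lowest count. Zmiz1 and Zmiz2 are coactivators related to the PIAS proteins. Zmiz1 had 7 sites with a maximum count of 13, and Zmiz2 had 2 sites with a count of 4 each. Zkscan1 had 2 sites with a maximum of 11, and Zkscan3, Zscan18 and Zscan26 had 1 each, with counts of 3, 6 and 7.

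Of 32 members named for a known role, 18 had a site and 14 had none. These were picked as well-known genes with earlier results in view, so their share is not comparable with the 17.0% of all annotated members. Besides those given above, the ones with none were Zfp57, which maintains imprints, Zfp217, Zfp423, Zfp521, Zfp536, Zfp804a, Zmat4 and Zscan4c.

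Where the sites lay along transcripts was compared next. By the list-wide region rule, 223 member sites (59.3%, 54.2 to 64.3) were in 3' UTRs, against 62.0% of the rest. Coding sites numbered 136 (36.2%, 31.3 to 41.3), against 25.9% of the rest. Sites in 5' UTRs made up 2.39% of member sites and 1.99% of the rest, and noncoding exons 2.13% and 9.86%. The rest includes noncoding RNA genes, whose exonic sites all fall in the last class. On the longest coding transcript alone, where 356 member sites could be placed, the CDS held 43.8% (38.6 to 49.1) against 36.1% of the rest. Without Zbtb18 it held 41.0% (35.2 to 46.9), an interval that includes the value of the rest.

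Coding sites of members lay in long exons. Of 156 coding sites on the longest coding transcript, 128 (82.1%, 75.1 to 87.7) were in an exon of at least 400 nt, against 43.1% of 8227 coding sites of the rest. Without Zbtb18 the share was 76.3%. Counted by gene, 40 of 51 members with a coding site (78.4%, 64.7 to 88.7) had one in such an exon, against 900 of 2065 other genes (43.6%). The median exon with a member's coding site was 3026 nt long, or 1955 nt without Zbtb18, against 247 nt in the rest. The share of members' coding sequence that lies in exons of at least 400 nt was not computed, so the part of gene structure was not tested. Members' last exons were long whether or not they had a site. The median was 3075 nt with a site and 2430 nt without, against 1738 and 993 nt in the other protein-coding genes. Of the coding sites, 73 (46.8%) were in the last exon, against 17.6% in the rest, and without Zbtb18 the share was 29.7%.

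**Figure D3:**
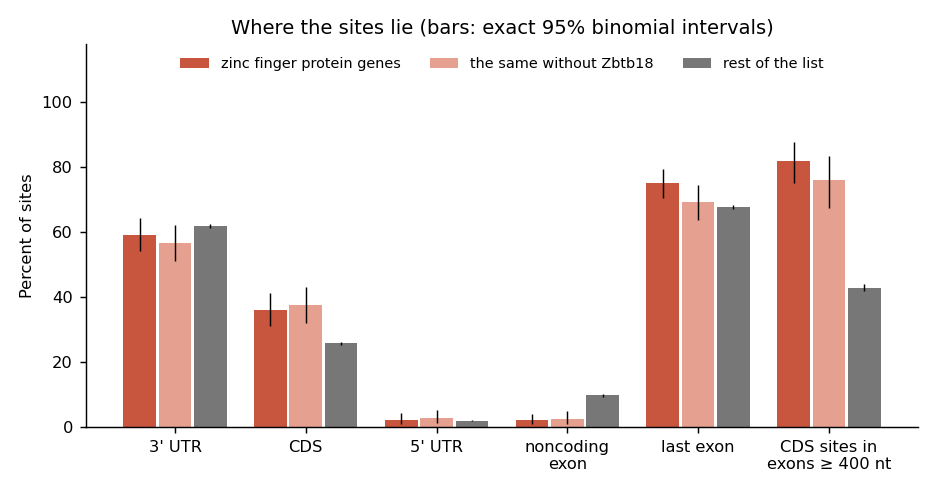
Percent of sites in each region, in the last exon and, for coding sites, in exons of at least 400 nt, for zinc finger protein genes, the same without Zbtb18, and the rest of the list, with exact 95% binomial intervals (last exon and coding exons on the longest coding transcript). The widest gap is at the exon length of coding sites, 82.1% for the zinc finger genes against 43.1% for the rest.

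**Figure D4:**
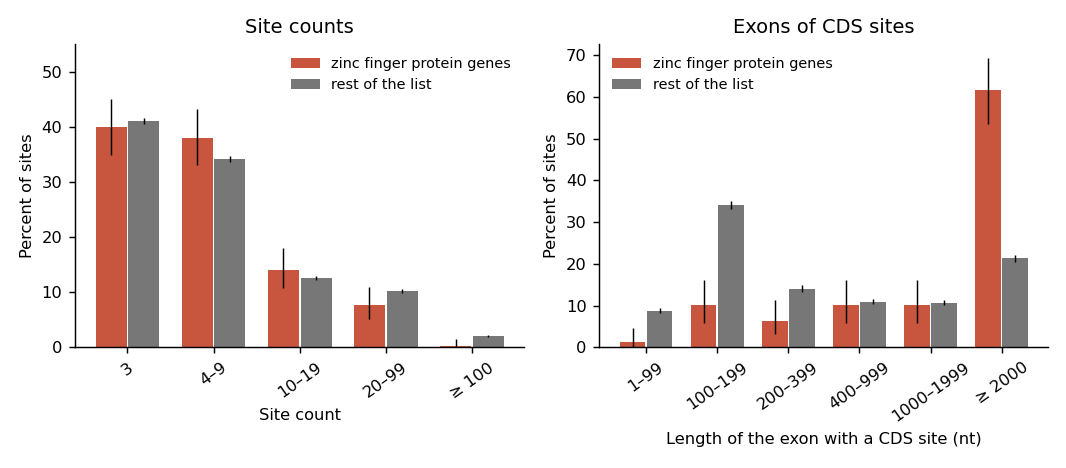
Left, percent of sites in bins of the site count; right, percent of coding sites by the length in nt of the exon that holds them, both with exact 95% binomial intervals. In every bin of the site count below 100 the interval of the zinc finger genes includes the value of the rest, while 61.5% of coding sites of zinc finger genes lay in exons of at least 2000 nt, against 21.3% in the rest.

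How member sites compared with the rest near the stop codon depended on Zbtb18 and on the window. Within 400 nt of it lay 87 of the 356 placed sites (24.4%, 20.1 to 29.2), against 31.4% of the rest, and 28.8% of member sites without Zbtb18. Within 200 nt the share was 18.0% (14.1 to 22.4) against 18.8% of the rest, and without Zbtb18 it was above the rest, at 22.2% (17.6 to 27.5), with an interval that includes the value of the rest. The median member site lay 62.5 nt after the stop codon, against 176 nt in the rest. By gene, all sites of Zfp612 and Zfp91 lay within 400 nt of the stop codon, while Zfp365 and Zfp36l1 had 0 there and Zbtb18 had 4.

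Few sites lay inside the fingers. Of the 156 coding sites, 10 (6.41%, 3.12 to 11.5) fell within a C2H2 pattern, and 6 of these were in Zbtb18, with counts of 3, 55, 3, 12, 3 and 13. The other 4 were single sites in Zmat2, Zfp664, Zfp612 and Zfp280c, with counts of 8, 3, 5 and 4. Without Zbtb18, the share was 3.39% (0.931 to 8.45). To allow for where RAC occurs, RAC sites were set beside all RAC cytosines of the same coding sequences. In the 44 genes with a coding site and a finger, 7 of 106 RAC sites (6.60%, 2.696 to 13.1) were in a finger, where 644 of 4235 RAC cytosines (15.2%) were. Without Zbtb18, 4 of 83 sites (4.82%, 1.33 to 11.9) were, against 15.2% of RAC cytosines. In genes with at least 5 fingers, 3 of 52 (5.77%, 1.21 to 15.9) were, against 19.7%. Each of these 3 intervals lies below the share of RAC cytosines, but the 3 sets overlap. The RAC cytosines were pooled over genes, without regard to how many sites each gene gave. Zfp644 and Zbtb18 gave 19 and 23 of the 106 RAC sites, and fewer of their RAC cytosines were in fingers, 8.21% and 12.2%. The part of this mix of genes in the gap was not tested. With counts of 4 or more only, 6 of 77 (7.79%, 2.91 to 16.2) were in a finger, against 13.6% of RAC cytosines, which that interval includes. In Zbtb18 alone, 3 of 23 RAC sites (13.0%, 2.78 to 33.6) were in a finger, against 6 of 49 RAC cytosines (12.2%). That interval is too wide to tell whether Zbtb18 has such a gap. Zfp644 had 0 of 19, which allows up to 17.6%, against 8.21% of its RAC cytosines. The linkers between fingers held 75 of the 4235 RAC cytosines of the 44 genes, and none of the 106 RAC sites. With so small a share of the cytosines, no conclusion is drawn from this absence. Finger repeats are alike between genes, and the treatment of reads that map to more than 1 place was not given in the sources used here. Its part in the shares of sites inside fingers was not tested.

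**Figure D5:**
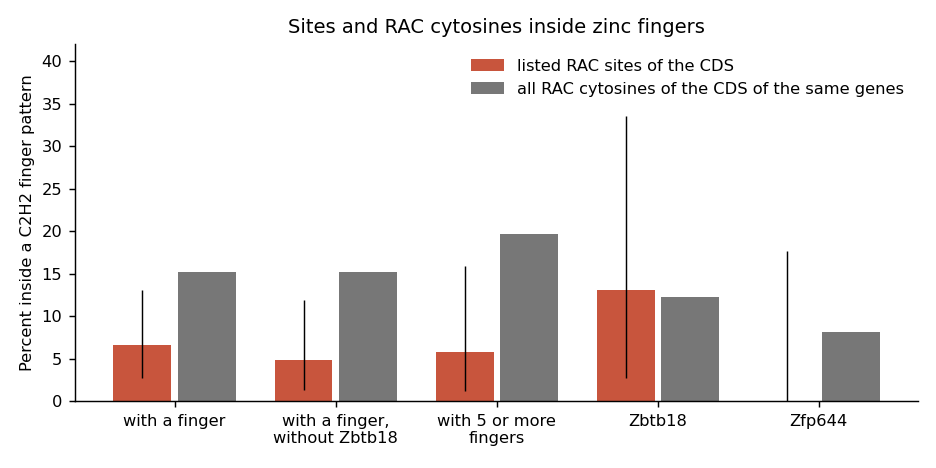
Percent of listed coding RAC sites (red, exact 95% binomial intervals) and of all coding RAC cytosines (grey) that lie inside a C2H2 finger pattern, in the same genes. In members with a finger the shares, pooled over genes, are 6.60% and 15.2%, and in Zbtb18 13.0% and 12.2%.

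The bases around the edited C differed from those of the rest in some shares, with more RAC and AAACA and less AGACA. RAC held 312 member sites (83.0%, 78.8 to 86.6) and 77.7% of the rest. The 64 sites outside RAC all had a count of 3. The filters behind the list were not given, so whether a filter set this, and with it the RAC shares, is unknown. Of those 64 sites, 44 (68.8%) had a RAC site within 10 nt, as did 67.7% of such sites in the rest. Among RAC sites, 72.4% of the members' and 71.0% of the rest's were in DRACH. AAACA was the context of 64 RAC sites in 33 members (20.5%, 16.2 to 25.4), against 13.8% of the rest, and 22.3% without Zbtb18. Of the 64, 8 and 4 lay in separate groups of Zbtb20 and 5 in Zfp612. Zbtb20 had further AAACA sites 949, 3923 and 4040 nt after the stop codon. The share without Zbtb20 and Zfp612 was not computed, so the part of these genes in the larger AAACA share was not tested. GAACG held 17 (5.45%), against 3.21%, of which 7 were in Zc3h13. GGACT, a classic m6A motif, held 5 (1.60%), against 1.72%. AGACA held 9 (2.88%), against 6.04%, and AGACC held 2 (0.641%), against 2.30%. The 30 bases around a site held a median of 12 A in members and 11 in the rest, with 18.5 in Zfp612, 16 in Zbtb20 and 10 in Zbtb18.

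Seen from the sequence, fewer of the members' RAC cytosines were listed. Of those on the longest coding transcripts of the 85 genes, 292 of 13440 were listed (2.17%, 1.93 to 2.43), against 3.69% in other listed genes. In the 3' UTR the shares were 2.76% and 5.81%, and in the CDS 1.76% and 2.41%, so the gap was wider in the 3' UTR. Zbtb18 led with 39.5%, followed by Zfp365 with 13.0%, Zfp36l1 with 11.6% and Zfp644 with 10.7%. Without Zbtb18 the members' share was 1.84%. Read depth is not in the list, so these shares cannot be set against it.

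Some sites could belong to another place. The 30-nt windows of 6 member sites occur exactly at other annotated loci, 1 each in Zfp273, Zbtb20, Zfp131, Zfp706, Zfp91 and Zc3h15. Inside an exon of a gene on the opposite strand lay 17 member sites (4.52%), against 3.01% of the rest. Besides the 12 in Zfp36l1, these included the Zfp106 sites with counts of 6 and 37, opposite Gm26899, and 1 site each in Zfp646 and Zfp668, which overlap each other.

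Related genes outside the name rule had a larger share with a site than the members, of whose annotated genes 17.0% had one, except in the list of PIAS relatives. Of 92 other C2H2 factors, 34 (37.0%) had a site, 249 in all and 3 in the median gene, led by Hivep2 and Klf9 with 41 each, Egr3 with 22 and Peg3 with 17. Of 83 genes of other zinc-binding families, 29 (34.9%) had a site, led by Zfr with 17 and Zmynd11 and Zmynd8 with 13 each. The corepressor partners of KRAB proteins had a site in 9 of 17 cases (52.9%), led by the chromatin remodeller Atrx with 32 and Chd4 with 12. Partners of the BTB and ZEB proteins had one in 9 of 14 (64.3%), led by the nuclear receptor corepressor Ncor1 with 31. Of 20 CCR4-NOT and decapping genes, through which the Zfp36 proteins act, 8 (40.0%) had a site, led by the helicase Ddx6 with 29. Of 8 PIAS relatives, Pias1 alone had any (12.5%), with 3. These lists hold well-known genes, chosen with earlier results of these data known, so their shares are no measure of zinc-binding genes in general.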

How the data were processed

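The 4 sublibraries of a cortex cell pool are covered by 1 list of sites. The build was mm10 and the aligner STAR 2.7.5, per the submitters' processing notes, and per the series text sites were called with the Bullseye pipeline. Filters and the use of APOBEC1-YTHmut were not given in the sources used here. For each site the authors deposited a position, strand, gene symbol and unnormalized count, and read depth is unknown. Sites were placed on GENCODE M21 with Python 3.11.15, pandas 2.3.3, numpy 2.4.6 and scipy 1.17.1. Of the members' sites, 374 matched a gene by symbol and 2 (Zfp267) by an older symbol, and all 376 were exonic with a C on their strand. Of these, 356 lay on the gene's longest coding transcript. Where transcripts differed, 3' UTR was taken before CDS, then 5' UTR, then exons of noncoding transcripts. Related lists covered other C2H2 factors, other zinc-binding families, and partners of KRAB, BTB, ZEB, CCCH and Zmiz proteins. Members and lists were chosen with earlier results of these data known. Named were the 15 members with most sites, those with the 10 highest counts, 3 per family and 32 with a known role. No p-value was computed. A few items are not reported here. Placement was tested on simulated data, with 600 of 600 positions in 200 genes recovered.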

Additional observations from a re-analysis of the deposited data

How the results depend on the processing

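Under the alternatives, 26 values stayed within the 95% interval of the first value or, for a number of sites, within 1.5 times it, and 16 moved. With counts of 4 or more, 226 sites remained, 12.4% of annotated members had a site, the DRACH share was 75.7% and the last-exon share 79.7%. With 1 site per gene, the 3' UTR share was 47.1%, the last-exon share 69.6%, the RAC share 98.8%, the DRACH share 74.1% and the median count 6. With RAC sites only, the DRACH share was 72.4% and the median count 6. With CDS placed first, the 3' UTR share was 54.0% and the CDS share 41.5%, and on the longest coding transcript the CDS share was 43.8%. A 200 nt window at the stop codon held 18.0%. Leaving out Zbtb18 together with the longest-transcript rule, or for motifs, the stop codon, the last exon and fingers, was chosen after seeing the data, and of these the last-exon share moved, to 69.4%. All member sites outside RAC had a count of 3, so filters on count or RAC raise the DRACH share by construction. With RAC sites only, the median count rises for the same reason. The 1 site kept per gene was that with the highest count, which by construction favours RAC and DRACH sites and a higher median count. The causes of the other shifts were not tested. No paired analysis was possible because replicates are not told apart in the list. It holds no read depth, expression, cell type or sample, so a gene without a site is not thereby an unmethylated gene.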
